A study of Mus musculus with 96 samples.

Results

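The mitochondrially encoded transcripts are the RNAs copied from the small circular genome inside mitochondria. The 37 members are the rows of the deposited count table whose mouse gene symbol starts with mt-, out of 36205 rows that are not spike-in names. They comprise 13 protein genes, 2 ribosomal RNAs and 22 transfer RNAs. The RNA came from single cells of the mouse embryonic stem cell line E14, labelled wild-type with C57BL/6 as the strain, and each sample is a single cell in a well of a plate. Of 76 wells labelled serum/LIF (serum medium plus leukaemia inhibitory factor), 61 had a column of counts and were used. Neither the 16 wells of the 2i medium nor the 4 empty control wells were used here. No culture is named, so cells of 1 condition were described and no test between conditions was made. Well A07 stood apart in its mitochondrial counts and is given by itself, and all other summaries are over 60 cells.

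Mitochondrial DNA is copied from both strands into long precursors, and the transfer RNAs that lie between most of the other genes are cut out to release the messenger and ribosomal RNAs. The protein genes encode subunits of respiratory complexes I, III, IV and of the ATP synthase (complex V), whose other subunits come from nuclear genes. The 2 ribosomal RNAs form the core of the mitochondrial ribosome. Pieces of mitochondrial DNA have also been inserted into nuclear chromosomes during evolution, and some of these copies are annotated as nuclear genes.

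Sequence shared with such copies went side by side with the largest differences in level among the members, so stretches of 4 members are shown with their annotated nuclear copy. All 4 come from GENCODE M21 transcripts on GRCm38, are written 5′ to 3′ in the sense of the gene, and carry capitals where the member and its copy differ. The mt-Co1 stretch lies at chrM:5787-5846 on the plus strand, inside the coding exon, and its copy Gm13340 lies at chr2:22589129-22589188 on the minus strand. The other stretches lie at chrM:7323-7382 (mt-Co2), chrM:9459-9518 (mt-Nd3) and chrM:10575-10634 (mt-Nd4), all on the plus strand. Their copies lie on the minus strand at chr1:24615196-24615255 (Gm28661), chr1:24613060-24613119 (Gm28438) and chr1:24611943-24612002 (Gm28439).
mt-Co1: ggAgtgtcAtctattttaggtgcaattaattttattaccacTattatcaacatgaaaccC
Gm13340: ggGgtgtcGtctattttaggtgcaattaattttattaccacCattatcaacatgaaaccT
mt-Co2: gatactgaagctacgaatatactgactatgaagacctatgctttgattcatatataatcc
Gm28661: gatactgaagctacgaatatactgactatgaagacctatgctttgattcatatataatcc
mt-Nd3: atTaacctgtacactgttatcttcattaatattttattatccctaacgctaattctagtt
Gm28438: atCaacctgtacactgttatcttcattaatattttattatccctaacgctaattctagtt
mt-Nd4: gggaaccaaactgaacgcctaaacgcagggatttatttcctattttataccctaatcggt
Gm28439: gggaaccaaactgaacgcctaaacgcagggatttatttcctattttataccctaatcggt

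Counted from 1 at the first base of the gene, the mt-Co1 stretch differed from Gm13340 by A462G, A468G, T501C and C519T. The mt-Nd3 stretch differed from Gm28438 by T3C, the single mismatch over the 345 bases that could be aligned. The mt-Co2 and mt-Nd4 stretches were identical to their copies. Full-length mt-Co1 had 37 mismatches to Gm13340 over 1545 bases (97.6% identity), while mt-Co2 had 0 mismatches to Gm28661 over 681 bases.

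Total counts per cell ranged from 2417702 to 6787261, and genes detected per cell from 5317 to 10032. Of the 10 embryonic stem cell markers listed, Pou5f1, Sall4 and Lin28a had counts in all 60 cells. Dppa5a and Tdgf1 had counts in 59 cells, Utf1 in 56, Sox2 in 53, Nanog in 47, Zfp42 in 41 and Esrrb in 18. The summed levels of the 7 fibroblast and 7 primitive endoderm markers had a median of 0. Mitochondrial transcripts took a median of 2.00% of the counts of a cell, with an SD of 0.758 over 60 cells. The lowest share was 0.741% in A04 and the highest were 4.43% in B05 and 4.45% in F07. Only 3 cells lay below 1% and 3 above 3%, and the quartiles were 1.39% and 2.52%. The share had a Spearman rho of -0.454 with the total counts of the cell and -0.225 with genes detected (60 cells, description only, since share and depth come from the same libraries). By plate position, the median share was 1.66% in the 32 cells of rows A to D and 2.31% in the 28 cells of rows E to H. Whether depth or plate position had a part in the spread of the share was not tested.

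**Figure D1:**
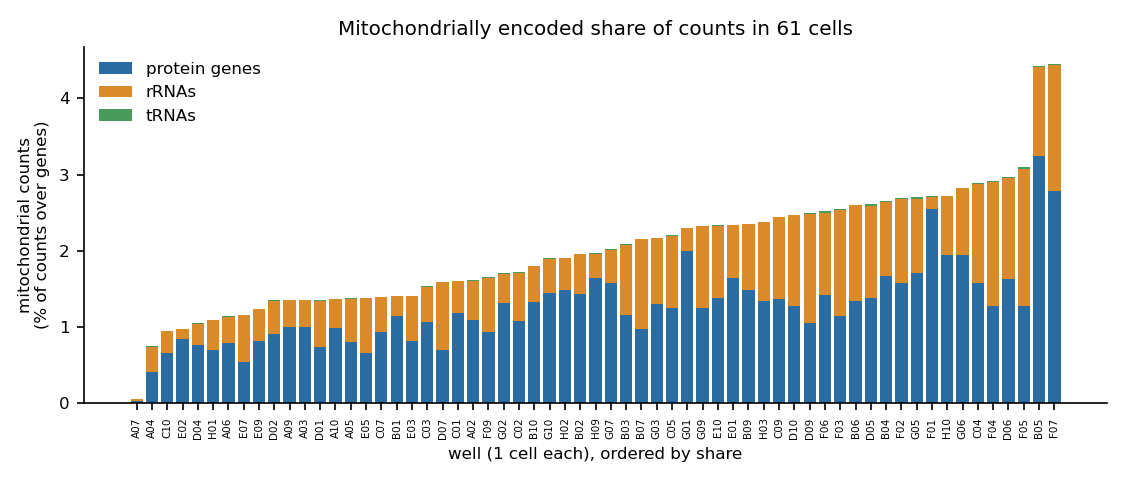
Each bar is 1 of 61 cells, ordered by its mitochondrial share, and the bar's parts give protein genes, rRNAs and tRNAs as a percentage of all counts over genes. A07 stands at 0.0543%, and the next cell, A04, at 0.741%.

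The make-up of the mitochondrial counts also differed from cell to cell. Protein genes took a median of 63% of them, from 41.2% in F05 to 93.8% in F01. The ribosomal RNAs took a median of 36.6%, from 5.74% in F01 to 58.4% in F05. Ribosomal counts per protein-gene count thus ran from 0.0612 in F01 to 1.42 in F05, a 23.2-fold range, with a median of 0.581. F01 and F05 had total mitochondrial shares close to each other, 2.71% and 3.09%, so they differed in composition far more than in amount. Transfer RNA rows took a median of 0.333%, from 0.122% in D10 to 1.14% in D01.

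Of the 37 members, 36 had at least 1 count in the 60 cells, and mt-Tr had 0 in every cell. A single cell had counts on 18 to 32 members. A filter of 10 counts or more in no fewer than 10 cells was passed by 11 of 13 protein genes, 2 of 2 ribosomal RNAs and 14 of 22 transfer RNAs, and all 37 are covered here. Levels are given as CPM, counts scaled to 1000000 nuclear counts, where nuclear counts are those of all genes other than the members and spike-ins, and genes are compared with each other only per kb of annotated length. The sources used here do not say whether strand was used in counting. Reads from both strands of the same bases therefore cannot be told apart. An example is where mt-Nd5 (plus strand, to base 13565) and mt-Nd6 (minus strand, from base 13552) overlap. Counts on a gene of 1 strand could also hold reads from the other strand.

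The highest levels per kb belonged to a ribosomal RNA and to 3 protein genes. mt-Rnr2, the large ribosomal RNA (chrM:1094-2675), had a median of 3913 CPM per kb, with a lowest cell of 724 and a highest of 10399. mt-Co1, the catalytic subunit of cytochrome c oxidase (complex IV; chrM:5328-6872), had a median of 3536 CPM per kb, from 1180 to 8550. mt-Nd1, a membrane-arm subunit of complex I (chrM:2751-3707), had a median of 3097 CPM per kb, from 609 to 13512. These neighbours in the order were not well separated: mt-Rnr2 was above mt-Co1 in 37 of 60 cells, and mt-Co1 above mt-Nd1 in 33.

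mt-Cytb, cytochrome b of complex III (chrM:14145-15288), followed with a median of 1555 CPM per kb, from 389 to 6015, and mt-Nd1 was above it in 54 of 60 cells. The small ribosomal RNA, mt-Rnr1 (chrM:70-1024), had a median of 768 CPM per kb, from 152 to 2835. mt-Nd5 of complex I (chrM:11742-13565) had a median of 677 CPM per kb, from 182 to 1820, and mt-Rnr1 exceeded it in only 37 of 60 cells. The mitochondrial ribosome holds its 2 RNAs in equal number. In counts per kb, mt-Rnr2 stood a median of 5.06-fold above mt-Rnr1 within a cell, from 2.18-fold in G10 to 12.1-fold in B10. How evenly the 2 RNAs were captured as cDNA was not measured, so this is a ratio of counts.

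The remaining well-counted genes were all complex I subunits. mt-Nd4 (chrM:10167-11544) had a median of 351 CPM per kb, from 90.1 to 1110, and mt-Nd5 was above it in 56 of 60 cells. mt-Nd2 (chrM:3914-4951) had a median of 240 CPM per kb, from 39.2 to 577. mt-Nd6 (chrM:13552-14070), the only protein gene on the minus strand, had a median of 199 CPM per kb, from 35.3 to 577. mt-Nd2 lay above mt-Nd6 in 34 of 60 cells, so their order was not clear. Without division by length, 11 of the 15 protein genes and ribosomal RNAs had the same rank.

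The other 6 protein genes had next to no counts. mt-Co2 and mt-Co3, core subunits of complex IV, had medians of 3.24 and 1.84 CPM per kb. mt-Atp6 and mt-Atp8 of the ATP synthase had medians of 5.98 and 2.44 CPM per kb, and mt-Nd3 and mt-Nd4l of complex I had medians of 0. In counts, a cell had 82 to 64956 on each of the 7 well-counted protein genes and 0 to 108 on each of these 6. The step between the groups was 33.3-fold, from mt-Nd6 to mt-Atp6, and mt-Nd6 was above mt-Atp6 in 60 of 60 cells. Together the 6 held 3185 counts, 0.0992% of all protein-gene counts, on 26.3% of the protein genes' annotated length. They encode parts of 3 different complexes, but they lie next to each other, from base 7013 (the start of mt-Co2) to base 10173 (the end of mt-Nd4l), between mt-Co1 and mt-Nd4.

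mt-Nd3 is the extreme case: it had 15 counts in all, in 14 cells, with at most 2 in a cell. mt-Nd4l had 133 counts in 27 cells, of which D09 alone held 31. mt-Nd4l and mt-Nd4 overlap on the genome and are translated from a shared messenger RNA, yet in the 27 cells with an mt-Nd4l count the level of mt-Nd4 per kb was a median of 290-fold higher. mt-Atp8 had 267 counts in 47 cells, mt-Co3 521 in 57, mt-Co2 864 in 59 and mt-Atp6 1385 in all 60.

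**Figure D2:**
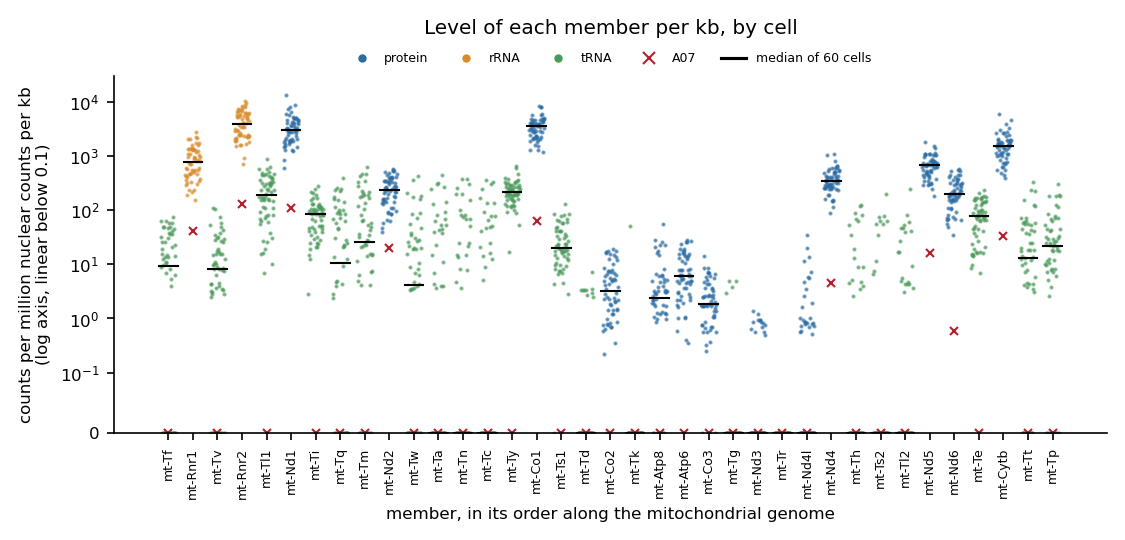
Each point is a cell, with the level of each member per kb on a log axis (linear below 0.1) and the members in their order along the mitochondrial genome. Black lines are medians of 60 cells, and red crosses are A07. The run from mt-Td to mt-Nd4l lies below its neighbours mt-Co1 and mt-Nd4.

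The sequences shown above bear on this stretch. The members were cut into all words of 50 bases, and each word was looked up in the nuclear transcripts of GENCODE M21. For mt-Co2, 100% of words were found exactly in a nuclear transcript, for mt-Co3 99.9%, for mt-Atp6 99.5%, for mt-Nd4l 98.8% and for mt-Nd3 98%. The share was 62.2% for mt-Nd4, 51.1% for mt-Co1, 8.19% for mt-Nd2, 7.61% for mt-Nd5 and 1.04% for mt-Rnr2. It was 0 for mt-Nd1, mt-Nd6, mt-Cytb, mt-Rnr1, all transfer RNAs and mt-Atp8. Thus 5 of the 6 low-count protein genes had at least 98% of their words in nuclear transcripts, the 7 well-counted ones had 0 to 62.2%, and mt-Atp8 was low with no annotated copy. mt-Co1 does have a full-length copy, Gm13340, but with the mismatches given above.

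Of the copies, 7 lie in a row on the minus strand of chromosome 1, in the order of their members, from base 24611535 to base 24616197, a run of 4663 bases. They are Gm28439 (the first 876 of the 1378 bases of mt-Nd4), Gm10222 (mt-Nd4l), Gm28438 (mt-Nd3), Gm28437 (mt-Co3), Gm10925 (mt-Atp6), Gm28661 (mt-Co2) and Gm29216 (the last 492 bases of mt-Co1, with 6 mismatches). The gap between the copies of mt-Atp6 and mt-Co2 spans 233 bases, and the matching gap between mt-Co2 and mt-Atp6, which holds mt-Tk and most of mt-Atp8, spans 230 bases. In all, 15 nuclear genes shared a 50-base word with a member. Of these, 7 had a row in the count table, and they held 209 counts over the 61 cells. Gm13341 had 156 of these counts and Gm10222 had 44, and 8 copies had no row. How reads that align to several places were treated is not given here, and the part of shared sequence in the low counts was not tested.

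**Figure D3:**
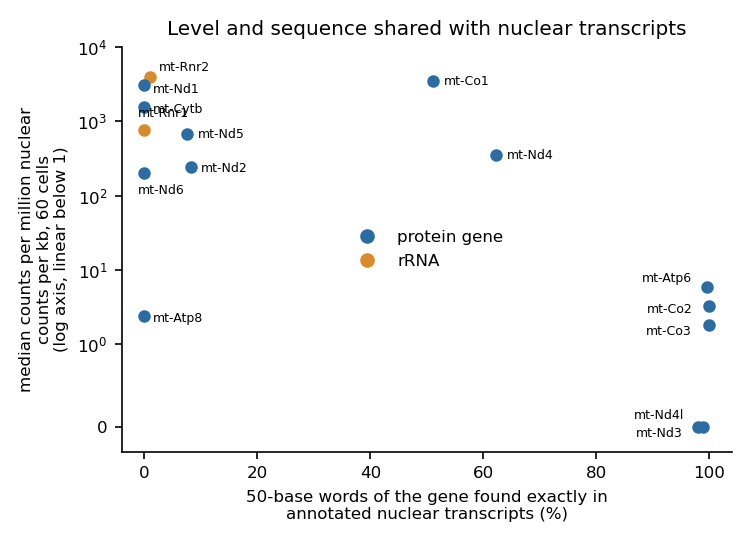
Each point is a protein gene or rRNA, with the percentage of its 50-base words found in nuclear transcripts on the x axis and its median level per kb over 60 cells on a log y axis (linear below 1). The 5 genes at or above 98% lie at or below 5.98 CPM per kb, and mt-Atp8 lies at 2.44 CPM per kb with 0%.

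Dividing the same counts only by positions whose 50-base word occurs in no nuclear transcript changed the order of the well-counted genes. This alternative was added after the data were seen, and genes with more shared words rise on it by construction. mt-Co1 moved to the top, with a median of 7473 CPM per kb of unshared sequence, ahead of mt-Rnr2 at 4081. mt-Nd4 moved from the seventh to the fifth place, with 962 CPM per kb, above mt-Rnr1 at 810 and mt-Nd5 at 753. The order of mt-Nd1, mt-Cytb, mt-Nd2 and mt-Nd6 stayed as before. mt-Atp8, with 155 unshared positions, remained low at 3.21 CPM per kb. This scale assumes that no read from shared sequence was counted, which was not tested. mt-Co2, with 100% of its words shared, still had 864 counts in 59 cells.

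Protein genes did not keep fixed proportions in the cells. mt-Co1 took a median of 43% of the protein-gene counts, from 24% in B10 to 70.4% in E09. mt-Nd1 took a median of 24.5%, from 7.92% in A03 to 55.5% in D05, where it exceeded every other protein gene. mt-Cytb took a median of 13.7%, from 5.39% in E09 to 29.3% in H01. The coefficient of variation over cells was 26.3% for the share of mt-Co1 and 34.8% for mt-Nd1, where counting alone would give 0.536% and 0.813%. The reads carry no molecular identifiers, so the counting values are lower limits of the technical spread, and the spread from reverse transcription and amplification of a single cell's RNA was not measured.

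The smaller shares differed in their relative spread. mt-Nd5 took a median of 10.1% (2.49% in G02 to 17% in B03), mt-Nd4 4.10% (1.87% in C10 to 7.65% in D01) and mt-Nd2 1.85% (0.484% in A03 to 4.62% in D01). The coefficient of variation was 30.5% for mt-Nd5, 29.9% for mt-Nd4 and 47.7% for mt-Nd2. mt-Nd6 took a median of 0.825%, from 0.275% in C10 to 2.48% in D01, with a coefficient of variation of 51% against 4.93% from counting. mt-Nd5, whose end overlaps that of mt-Nd6 on the opposite strand, stood at 3.19 times the level of mt-Nd6 per kb in the median cell, from 0.936 times in B10 to 13.5 times in A03.

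The levels of the 7 well-counted protein genes went together over cells. This set was chosen after the counts were seen, as the protein genes with a median count of at least 100. Their mean pairwise Spearman rho was 0.540 over 21 pairs, and the first principal component of their log2 levels held 65.9% of the variance. Over all 13 protein genes the mean was 0.312 over 78 pairs, including the genes with almost no counts. All levels of a cell share its library and its nuclear total, so part of any such correlation can come from the common denominator.

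Within that set, the pairs of complex I genes had the higher mean. mt-Nd1 and mt-Nd2, which lie close together on the genome, had a rho of 0.832, the highest of the 21 pairs. mt-Nd2 and mt-Nd6 had a rho of 0.764 although they lie on opposite strands. The 10 pairs of complex I genes had a mean rho of 0.656, from 0.549 to 0.832, and the other 11 pairs a mean of 0.435, from 0.176 to 0.697. Each of these 11 pairs holds mt-Co1 or mt-Cytb, so the contrast rests on those genes. mt-Cytb had a rho of 0.359 (mt-Nd6) to 0.697 (mt-Nd4, the highest of the 11) with the complex I genes. Over the 21 pairs, which share genes, the distance between 2 genes had a rho of 0.0805 with their correlation. mt-Nd6 had a mean rho of 0.562 with the 6 protein genes of the other strand, and those 6 a mean of 0.531 among themselves.

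mt-Co1 had the lower values. Its rho was 0.176 with mt-Nd2, 0.328 with mt-Nd1 and 0.455 with mt-Nd5, its highest. The value for mt-Nd2 was -0.0422 in plate rows A to D and 0.245 in rows E to H. Expressed as shares, mt-Co1 and mt-Nd1 had a rho of -0.779, and mt-Nd1 and mt-Nd2 one of 0.654. Shares of a whole tend to oppose each other, above all the largest, which here are those of mt-Co1 and mt-Nd1. For 7 shares of equal spread the mean correlation would be -0.167. These shares differ in spread (SD of 11.4 percentage points for mt-Co1 and 0.478 for mt-Nd6), so that value is no baseline for them. The mean over the 21 pairs was 0.0140.

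The ribosomal RNAs were the closest pair of all, and they followed some protein genes and not others. mt-Rnr1 and mt-Rnr2 had a rho of 0.917. mt-Rnr2 had a rho of 0.698 with mt-Nd2 and 0.604 with mt-Nd1, but 0.123 with mt-Cytb and -0.0235 with mt-Co1. The value for mt-Co1 turned to 0.189 in the cells of plate rows A to D and -0.238 in rows E to H, while that for mt-Nd2 was 0.783 and 0.654. mt-Rnr1 and mt-Rnr2 were lower in cells of higher total counts (rho of -0.629 and -0.603), while the values were -0.371 for mt-Nd1 and -0.0286 for mt-Co1. The part of depth in these differences was not tested.

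**Figure D4:**
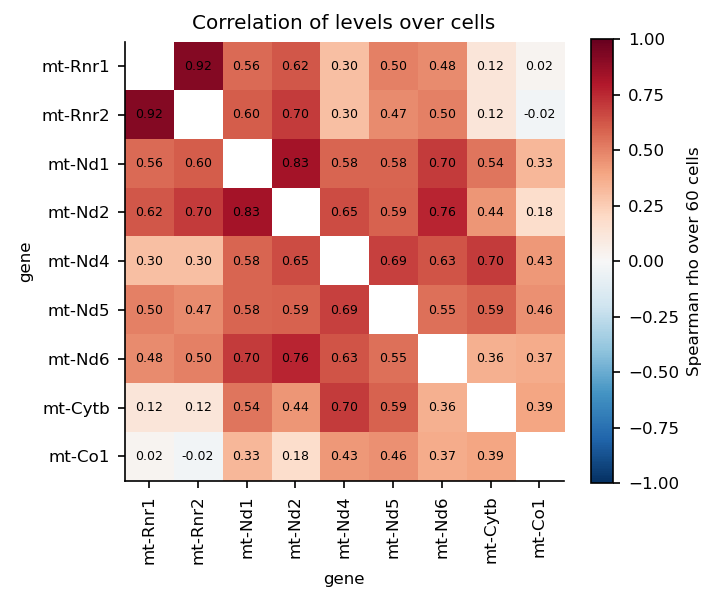
Each square is the Spearman rho over 60 cells between the levels of the genes on the 2 axes, for the 2 rRNAs and 7 well-counted protein genes. The rRNA pair stands at 0.92, and the column of mt-Co1 falls to -0.02 at mt-Rnr2.

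Transfer RNAs are short, and counts from mature ones and from longer precursors that run across their rows cannot be told apart. The 22 rows held 19266 counts, with 18 rows seen in at least 10 cells. Both of the most counted rows had counts in all 60 cells. mt-Tl1 (leucine; chrM:2676-2750, plus strand), which lies between mt-Rnr2 and mt-Nd1, had 4351 counts, and mt-Ty (tyrosine; chrM:5260-5326, minus strand), just before mt-Co1, had 3833. mt-Tr (arginine; chrM:9808-9875, plus strand) had 0 counts in every cell, which allows up to 3 counts in all. Their gene sequences, in the sense of the transfer RNA and with no part in capitals, show the most counted rows beside the one never counted.
mt-Tl1: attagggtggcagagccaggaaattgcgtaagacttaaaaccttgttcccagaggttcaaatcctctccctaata
mt-Ty: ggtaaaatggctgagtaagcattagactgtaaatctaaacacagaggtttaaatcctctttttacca
mt-Tr: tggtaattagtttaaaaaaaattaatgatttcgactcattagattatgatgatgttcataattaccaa

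mt-Ti (isoleucine) and mt-Te (glutamate) also had counts in all 60 cells, 1461 and 1385 in total. The transfer RNA rows in the low-count stretch or beside it were nearly empty. mt-Td (aspartate), just before mt-Co2, had 10 counts. Within the stretch, mt-Tk (lysine) had 10, all in B05, and mt-Tg (glycine) 4. mt-Tr, never counted, lies within it too, between mt-Nd3 and mt-Nd4l. None of these rows shared a 50-base word with an annotated nuclear transcript. The gaps between the chromosome 1 copies were not searched, such as the 69 bases between the copies of mt-Nd3 and mt-Co3. Whether these transfer RNAs have nuclear copies there is therefore not known from this lookup. The 14 transfer RNAs of the plus strand held 9836 counts and the 8 of the minus strand 9430.

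Several transfer RNAs were counted in the same few cells as their neighbours. mt-Ta, mt-Tn and mt-Tc (alanine, asparagine and cysteine), consecutive on the minus strand, had counts in 25, 24 and 22 cells, and 21 cells had both mt-Tn and mt-Tc of 25 with either. The rho was 0.896 for mt-Ta with mt-Tn and 0.903 for mt-Tn with mt-Tc. Their plus-strand neighbour mt-Tw (tryptophan), seen in 35 cells, had a rho of 0.858 with mt-Ta. mt-Tq (glutamine, minus strand) and mt-Tm (methionine, plus strand) had a rho of 0.890, and F01 held 13.9% and 12.9% of their 984 and 1688 counts. Other neighbours had lower values, on opposite strands (mt-Ti with mt-Tq 0.510) and on the same strand (mt-Tc with mt-Ty 0.405).

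mt-Th, mt-Ts2 and mt-Tl2 (histidine, a serine and a leucine tRNA), which lie in a row between mt-Nd4 and mt-Nd5, were seen in 18, 11 and 20 cells. All 11 cells with mt-Ts2 also had mt-Th, and G05 alone held 37.4% of the mt-Ts2 and 40.3% of the mt-Tl2 counts. G05 also led mt-Tt and mt-Tp (threonine and proline), whose rho was 0.761, with 108 of 649 and 97 of 701 counts. Correlations between rows with so few counts rest on these cells. With the gene beside it, mt-Te had a rho of 0.820 (mt-Nd6, the same strand), mt-Ti 0.651 (mt-Nd1, overlapping by 2 bases), mt-Tv (valine) 0.644 (mt-Rnr1) and mt-Tl1 0.330 (mt-Nd1) and 0.244 (mt-Rnr2). mt-Tf (phenylalanine), the first gene of the genome, had 286 counts in 36 cells and a rho of 0.200 with mt-Rnr1. mt-Ts1 (the other serine tRNA), at the end of mt-Co1, had 483 counts in 58 cells and a rho of 0.218 with it.

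Against all genes, the spread of the well-counted protein genes over cells was at or below the middle of the range. The squared coefficient of variation divided by the trend at the same mean (modelGeneCV2 of scran) had a median of 1.63 over 10796 genes. It was 1.63 for mt-Nd1, 1.5 for mt-Cytb, 0.911 for mt-Nd2, 0.897 for mt-Nd4, 0.85 for mt-Nd5, 0.849 for mt-Co1 and 0.731 for mt-Nd6. mt-Rnr1 stood at 1.63 and mt-Rnr2 at 1.27. Over the 11 protein genes that passed the filter, the median was 0.849, and the 4 low-count genes among them ran from 0.0643 (mt-Co3) to 0.137 (mt-Atp6).

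Few nuclear genes followed the summed level of the mitochondrial protein genes. Of 10769 nuclear genes past the same filter on counts, 17 had a rho of at least 0.4 (0.158%) and 30 a rho of -0.4 or below (0.279%). The median rho was -0.04, and 90% of genes lay between -0.26 and 0.21. These values are a description of 60 cells that share 1 plate, with no p.

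The genes with the highest rho were Ptges3 (an HSP90 co-chaperone, 0.483), Pcnp (0.468), Prpf39 (a splicing factor, 0.462) and Uchl5 (a deubiquitinase of the proteasome, 0.452). Bcas2, a splicing factor, stood at 0.445 and Fubp3 at 0.441. Fastkd3, whose family acts on mitochondrial RNA, had a rho of 0.435, with counts in 42 cells and a median of 26.7 CPM, and Arl3, a small GTPase of cilia, also 0.435 in 31 cells. The lowest were Tirap (an adaptor of Toll-like receptors, -0.523), Fbxo21 (-0.510), Ptpn11 (the phosphatase SHP2, -0.465) and Ube2j1 (-0.461). Selenoh stood at -0.459, Eif6 (a 60S ribosome assembly factor) at -0.459, Vti1a at -0.443 and the antisense RNA Gm17231 at -0.437. Of these, Tirap, Fbxo21, Ube2j1, Vti1a and Gm17231 had counts in 33, 32, 36, 34 and 37 cells, with medians of 0.827 to 4.04 CPM. Ptpn11, Eif6 and Selenoh had counts in 54, 59 and 60 cells.

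The nuclear partners of the mitochondrial genes had values spread around 0. Of the 36 nuclear subunits of complex I, 0 passed the limit in either direction, with a median rho of 0.00 (18 of 36 above 0) and a range from -0.210 (Ndufb7) to 0.267 (Ndufb10). The same held for 0 of 4 genes of complex II, 0 of 9 of complex III, 0 of 11 of complex IV and 0 of 15 of complex V, whose medians ran from -0.06 to 0.03. The 77 mitochondrial ribosomal protein genes had a median rho of -0.03, and 0 passed. These medians lie close to the -0.04 of all nuclear genes.

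The genes that copy and process mitochondrial RNA gave similar values. Of 18 genes of mitochondrial DNA transcription and maintenance, 0 passed, and the highest was Mterf1a, a termination factor, at 0.277. Of 33 genes of RNA processing and stability, 1 passed, Fastkd3, and the list's median was -0.06. Of 28 genes of mitochondrial translation, 0 passed, with Gatc, of the glutaminyl-tRNA amidotransferase, lowest at -0.379. The 7 biogenesis regulators, 12 stress response genes and 6 mitophagy genes tested had 0 past the limit, with medians of -0.01, -0.01 and -0.14. Among 18 G1/S and 18 G2/M genes of the cell cycle, 0 passed. Over all 10769 nuclear genes tested, 0.158% passed upward and 0.279% downward, so 0 in lists this short says little. The G1/S genes had a median rho of -0.129, with 5 of 18 above 0, and their summed level a rho of -0.233. For the G2/M genes the median was 0.0446, with 13 of 18 above 0, and the summed level had a rho of 0.0480.

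Of 14 naive pluripotency genes tested, 1 passed, Dppa5a, a marker of naive cells, at 0.412, and 13 had a rho above 0, with a median of 0.21 against -0.04 over all nuclear genes. The single value below 0 was that of Tfcp2l1, at -0.01. The summed level of the list had a rho of 0.424 with the mitochondrial level, 0.559 in plate rows A to D and 0.302 in rows E to H. With the ribosomal RNAs in place of the protein genes it was 0.241. Dppa5a had a median of 1181 CPM where the sum had a median of 1553 CPM. The values of the summed level therefore rest largely on Dppa5a and are no measure of the list as a whole. The list's genes are known to vary together in serum, so they are not independent of each other.

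A07 had nearly no mitochondrial RNA. It held 1806 mitochondrial counts (95% exact Poisson interval 1724 to 1891, counting error only), 0.0543% of its counts, which is 36.8-fold below the median of the other cells and 13.7-fold below the lowest of them. The rest of the library was not sparse. A07 had counts on 9872 nuclear genes, and 1 other cell, C04, had more genes detected, and its median Pearson r with the other cells, 0.530, was above that of 46 of them. The counts were 679 for mt-Rnr2, 355 for mt-Nd1, 327 for mt-Co1, 129 for mt-Rnr1, 127 for mt-Cytb, 97 for mt-Nd5, 70 for mt-Nd2, 21 for mt-Nd4 and 1 for mt-Nd6. The other 28 members had 0, among them all 22 transfer RNAs and all 6 low-count protein genes.

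The difference was not equal for all genes. Against the median of the others, mt-Nd2 was 11.8-fold lower, the least of the members with a count. mt-Rnr1 was 18.9-fold lower. mt-Nd6, with a single count, lay 344-fold below the median of the other cells, a ratio that rests on that count. Within the protein-gene counts of A07, mt-Nd2 took 7.01%, above the 4.62% of the highest other cell, and mt-Nd6 0.1%, below the 0.275% of the lowest other cell.

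Some genes of a list of mitochondrial stress response genes stood high in A07, and others did not. The list was written with earlier results of these data known. Over 18683 nuclear genes with at least 10 counts in some cell, A07 was above each other cell for 288 (1.54%) and below each other cell for 46 (0.246%). For comparison, the other cells were highest for a median of 1.54% of genes and lowest for a median of 0.104%. Of the 16 genes in the stress response list, A07 was the highest of all 61 cells for 6: Atf4, Ddit3, Trib3, Psat1, Phgdh and Fgf21. Ddit3, the transcription factor CHOP, had 357 CPM, against a median of 4.50 and a highest of 258 in the other cells. Trib3, a pseudokinase induced by CHOP and ATF4, had 372 CPM, with a count in 10 of the other 60 cells and a highest of 265. The highest other cell for both Ddit3 and Trib3 was C10, whose mitochondrial share of 0.943% was the second lowest of the 60. A04, with the lowest share (0.741%), had 3.61 CPM of Ddit3 and 0 of Trib3. Atf4, the main transcription factor of the integrated stress response, had 467 CPM against a median of 116 and a highest of 442.

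Some metabolic genes of the list were high too. Psat1 and Phgdh, enzymes of serine synthesis, had 867 and 692 CPM, where the highest other cells had 782 and 613. Fgf21, a secreted hormone known from mitochondrial disease, had 44 counts in A07 and 0 in each of the other 60 cells, which allows up to 3 counts per cell. Chac1, which degrades glutathione, had 113 CPM, and just 1 other cell had a count, at 160 CPM. Other members of the list were not extreme: Asns, asparagine synthetase, at 445 CPM lay above 41 of 60 cells. The mitochondrial chaperone genes Hspd1 and Hspe1 lay above 5 and 9 of 60 cells, and Gdf15 had 0 counts.

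Among 6 mitophagy genes with enough counts, A07 was highest for 1, Sqstm1, the autophagy receptor p62, with 998 CPM against a median of 81.4 and a highest of 347. Bnip3l and Map1lc3b lay above 45 and 34 of 60 cells. Bnip3, Fundc1 and Pink1 had 0 counts in A07, and 41, 38 and 16 of the other 60 cells had a count of them.

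Most nuclear subunits of complexes I, III, IV and V stood below the median in A07, and the 4 of complex II did not. Of those 4, 1 had a count in every other cell, against 11 of 11 for complex IV. The source of this difference between complexes was not tested. Over all 76 subunits, A07 was below each other cell for 9, above each for 0, and below the median for 60. Over nuclear genes as a whole, A07 was below each other cell for 46 of 18683 (0.246%). Only genes with a count in every other cell can be lowest in A07, so that percentage is a low reference for subunits counted in most cells. Among the 7773 nuclear genes with a median above 0, A07 was below it for 46%, and among the 1470 with a count in every other cell, for 61.6%. By complex, the number below the median was 29 of 36 for complex I, 0 of 4 for II, 7 of 9 for III, 11 of 11 for IV and 13 of 16 for V. Cox5a, Cox7a2 and Cox7b of complex IV were among the 9, at 118, 98 and 171 CPM against medians of 368, 325 and 387. The summed level of the 11 complex IV genes was 2317 CPM in A07 and 3230 to 7158 CPM in the other cells. For the 36 complex I genes it was 5005 against 5369 to 9843 CPM. The sums of complexes III and V, 2021 and 6024 CPM, lay above 3 and 4 of 60 cells. That of complex II, 1577 CPM, lay above 56, and Sdha, its flavoprotein subunit, above 50.

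Other markers moved in A07 as well. Malat1, an RNA kept in the nucleus, had 2704 CPM, above 57 of 60 cells, with a median of 751 in them, and Neat1 had 340 CPM, above 59. Of the 10 embryonic stem cell markers, Pou5f1 had 197 CPM, against a median of 1209, and Nanog had 0 counts, where 47 of 60 cells had some. Sox2 had 41.5 CPM, above 38 of 60 cells, and Utf1 and Lin28a each lay above 25. Esrrb had 0 counts, and 18 of the other 60 cells had any. The summed level of the 10 was 642 CPM in A07 and 438 to 15479 CPM in the other cells, with 1 of them lower. The 7 fibroblast markers had 0 counts in A07. The 7 primitive endoderm markers summed to 36.4 CPM, within the 0 to 212 CPM of the other cells. There is a single such cell and so no replicate, and the part of these markers in its low mitochondrial share was not tested.

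**Figure D5:**
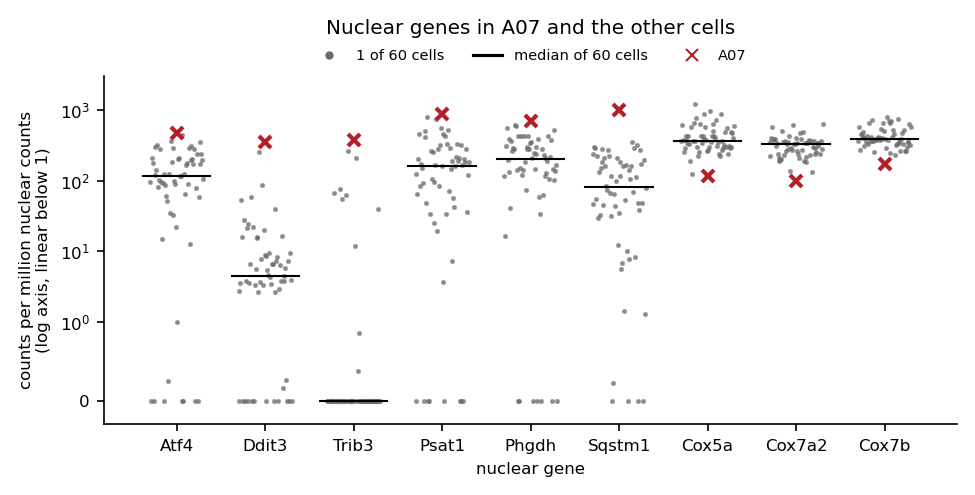
Levels of 9 nuclear genes in CPM on a log axis (linear below 1), with a grey point for each of 60 cells, a black line at their median and a red cross for A07. A07 lies above all other cells for Atf4, Ddit3, Trib3, Psat1, Phgdh and Sqstm1, and below all of them for Cox5a, Cox7a2 and Cox7b, which were picked for this after their values were seen.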

How the data were processed

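The deposited raw table holds whole-number counts per gene, from Nextera XT libraries of single-cell cDNA, per the labels' protocols. Per the submitters' processing notes, the authors' tools were GSNAP, SAMtools 0.1.18, bedtools 2.19.1 and DESeq2, on GRCm38. How reads were counted, with which annotation, by strand or not, and with several alignments or not, is not given in the sources used here. The deposited normalized signal was not used, since its scaling factors do not stay with a cell. Symbols and positions came from GENCODE M21. The mitochondrial share, levels as CPM of nuclear counts, Spearman correlations of log2(CPM + 1) and the squared coefficient of variation ratio (scran 1.30.0, R 4.3.3) were computed with Python 3.11.15, numpy 2.4.6, pandas 2.3.3 and scipy 1.17.1. TMM sizes came from edgeR 4.0.16. The correlation screen and the variation ratio were also run on simulated data. The spread in those data was preset and not fitted to these cells, so no result here rests on them. The members and gene lists were chosen with earlier results of these data known. Named nuclear genes were the 8 highest and 8 lowest in rho among genes with a count in at least 30 cells, plus list genes past 0.4. Genes named for A07 and the 7 well-counted protein genes were chosen after their values were seen. Cells are not replicates, so no test was made.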

Additional observations from a re-analysis of the deposited data

How the results depend on the processing

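The share of mitochondrial counts, its class shares, the mt-Nd6 share, the number of transfer RNAs seen and the pairwise correlations over all 13 protein genes moved by less than the spread between cells or pairs (counts by less than 1.5 times) with A07 included, without F07 and B10, within each part of the plate, and with each cell thinned to 2417702 counts. The mean pairwise rho of protein genes moved from 0.312 to 0.540 with the 7 well-counted genes. The variation ratio of the protein genes moved from 0.849 to 0.265 against edgeR's trended dispersion, and was 0.370 in plate rows E to H. The 17 genes that followed the mitochondrial level became 149 in rows A to D and 146 in rows E to H, where fewer cells give wider values. They became 10 with TMM library sizes, 10 with genes detected as a covariate, 134 at a limit of 0.3 and 35 with the level of the 2 ribosomal RNAs. The 30 genes that went against it became 202, 257, 12 with genes detected as a covariate and 280 at a limit of 0.3. The cause was not tested. The rho of the summed naive pluripotency level stayed between 0.241 and 0.559. Scaling to the spike-ins was not run, since their rows held 14 counts in 8 cells. No paired analysis was possible because 1 condition was analysed. At this depth, rows with under 10 counts give no usable correlation.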
